A study of Mus musculus with 56 samples.

Results

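The MHC class II genes and their regulator were followed as 10 listed genes in cortical and medullary thymic epithelial cells (cTECs and mTECs). The members were found by their Ensembl identifiers through GENCODE M21 symbols, and all 10 were among the 50600 genes of every sample. They were *H2-Aa*, *H2-Ab1* and *H2-Eb1* (chains of the classical class II molecules), *Cd74* (the invariant chain), *Ciita* (the transactivator), *H2-DMa*, *H2-DMb1* and *H2-DMb2* (chains of the peptide exchange factor H2-DM) and *H2-Oa* and *H2-Ob* (chains of its inhibitor H2-O).

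MHC class II molecules present peptides from the endosomal route to CD4 T cells. In the endoplasmic reticulum the invariant chain fills the peptide groove, and in late endosomes H2-DM exchanges its remnant for other peptides, a step that H2-O holds back. CIITA does not bind DNA itself but is recruited to the RFX, CREB and NF-Y factors on the conserved promoters of these genes, and interferon-gamma is a strong inducer of *Ciita*. In the thymus, class II on cTECs serves the positive selection of CD4 thymocytes, and class II on mTECs serves tolerance.

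Poly-A RNA was sequenced from 28 cTEC and 28 mTEC samples of B.6SJL-Ptprca Pep3b/BoyJ-CD45.1 (B6.SJL) females. The non-pregnant controls (NPC) were females of the same strain, and the other females had been mated with BALB/cJ males and were taken late in gestation (D-2), on the day of parturition (D0) or on days 1 to 28 after it, with the pups removed at birth. The ages of the mice are not given in the sources used here. Each cell type had 3 samples at 6 of the 16 time points (NPC, D-2 and days 0, 3, 6 and 12) and a single sample at the other 10 (days 1, 2, 4, 5, 8, 10, 16, 20, 24 and 28). Samples from D0 to D12 formed the early phase (18 per cell type) and those from D16 to D28 the late phase (4 per cell type). Each replicate came from 1 mouse and was sorted as EpCAM+ CD45- cells, with UEA1- cells as cTECs and UEA1+ cells as mTECs, so each sample is a gated population and not a single cell state. Because these were bulk samples, fewer cells that express a gene and less RNA per cell cannot be told apart.

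The libraries held between 4561208 and 108547384 expected counts, with medians of 22823581 in cTECs and 15590738 in mTECs. The cTEC markers *Psmb11*, *Prss16*, *Ly75*, *Enpep*, *Ccl25* and *Dll4* summed to 484 to 7460 FPKM (fragments scaled by transcript length and library size) in cTECs and 202 to 2530 in mTECs. The 7 mTEC markers summed to 3650 to 8090 FPKM in cTECs and 10400 to 19800 in mTECs. In cTECs this sum was mostly *Ccl21a* and *Krt5* (medians of 4090 and 1620 FPKM). *Aire* and *Fezf2* had medians of 5.66 and 28.2 FPKM in cTECs, beside 96.5 and 159 in mTECs. The cTEC samples were thus not free of transcripts from this list. In all, 4 libraries stood apart, with a median correlation under 0.8 with the others of their cell type. They were cTEC D20, 1 cTEC sample of D3, 1 mTEC sample of D0 and 1 mTEC sample of D3. Where a result turned on them, its value without them is given beside it.

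On GRCm38, 8 of the members lie close together on chromosome 17. *H2-Oa* (chr17:34092340-34095234, ENSMUSG00000024334), *H2-DMa* (chr17:34119541-34139101, ENSMUSG00000037649), *H2-DMb2* (chr17:34143307-34151555, ENSMUSG00000037548), *H2-DMb1* (chr17:34153072-34160230, ENSMUSG00000079547), *H2-Ob* (chr17:34238903-34254414, ENSMUSG00000041538), *H2-Ab1* (chr17:34257689-34269419, ENSMUSG00000073421) and *H2-Eb1* (chr17:34305867-34316674, ENSMUSG00000060586) lie on the plus strand. *H2-Aa* (chr17:34282744-34287823, ENSMUSG00000036594) lies on the minus strand between *H2-Ab1* and *H2-Eb1*. *Ciita* lies on chromosome 16 (chr16:10480059-10528418, plus strand, ENSMUSG00000022504), and *Cd74* lies apart from both. All 10 are annotated as protein-coding.

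The promoters of the classical chains *H2-Eb1* and *H2-Aa*, an H2-DM chain and an H2-O chain are shown. These members shared promoter elements, of which *H2-Aa* held only the second of the runs marked below, and yet differed in their levels. The sequences are from RefSeq (GRCm38.p6), read 5′ to 3′ on the strand of the gene, with capitals marking an X-box-like run (AAC, then 3 bases of any kind, then TGATG) and the Y-box run TGATTGG, which NF-Y is known to bind.
H2-Eb1 (chr17:34305753-34305822, plus strand): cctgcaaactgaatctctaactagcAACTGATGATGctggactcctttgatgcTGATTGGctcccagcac
H2-DMb2 (chr17:34145104-34145173, plus strand): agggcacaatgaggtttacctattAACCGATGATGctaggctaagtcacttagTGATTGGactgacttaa
H2-Ob (chr17:34238793-34238862, plus strand): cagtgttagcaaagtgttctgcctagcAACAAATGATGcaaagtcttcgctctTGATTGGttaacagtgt
H2-Aa (chr17:34287857-34287926, minus strand): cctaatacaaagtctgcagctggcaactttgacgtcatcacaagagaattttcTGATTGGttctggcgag
Both runs stood in the window of *H2-Eb1*, *H2-DMb2*, *H2-Ob* and *H2-DMb1*, with the starts of the runs 26 to 29 bases apart. *H2-Aa* and *H2-Oa* held TGATTGG alone, and neither run was found in the windows of *H2-DMa*. For the members only the strand of the gene was counted, unlike the shares over all windows that follow. Over the 32851 promoter windows of the table, each from 250 bases before to 50 after a start, the X-box-like run was found on either strand in 0.615%, TGATTGG in 7.82% and both in 0.0517%. The runs do not overlap each other, they were chosen after the windows had been read, and a match is a description of letters and not a measured binding site. No window of *H2-Ab1*, *Ciita* or *Cd74* was used here.

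The classical chains and the invariant chain were among the most abundant transcripts of both cell types, and the spread of their levels between samples was narrow. *Cd74* (chr18:60803848-60812652, plus strand, ENSMUSG00000024610) had the highest mean FPKM of all genes in cTECs (6457, rank 1, n = 28) and the second highest in mTECs (7055, rank 2, n = 28). *H2-Aa* reached a mean of 3106 FPKM in cTECs and 3443 in mTECs, *H2-Ab1* 2894 and 2758, and *H2-Eb1* 1661 and 2025. These 4 genes ranked among the 35 most abundant genes in each cell type.

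The 10 genes together took 2.009% to 2.687% of the TPM (transcript abundance scaled to the same sum in each sample) of a cTEC sample and 1.93% to 2.9% of that of an mTEC sample. The H2-DM and H2-O chains, which act on class II molecules and not as part of them, stood far lower on the FPKM scale. *H2-DMb2* averaged 247.4 FPKM in cTECs and 321.7 in mTECs, *H2-DMa* 195.3 and 106.6, and *H2-DMb1* 125.5 and 101.2. *H2-Oa* averaged 85.24 and 143.6 FPKM, *Ciita* 66.87 and 63.6, and *H2-Ob* 8.411 and 22.25, the lowest of the set. In cTECs, neighbours in the order of means had ranges that did not overlap at 4 places, between *Cd74* and *H2-Aa*, *H2-Ab1* and *H2-Eb1*, *H2-Eb1* and *H2-DMb2*, and *Ciita* and *H2-Ob*. In mTECs they did not overlap at 2 places, between *Cd74* and *H2-Aa* and between *H2-Eb1* and *H2-DMb2*, and all other neighbours overlapped.

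**Figure D1:**
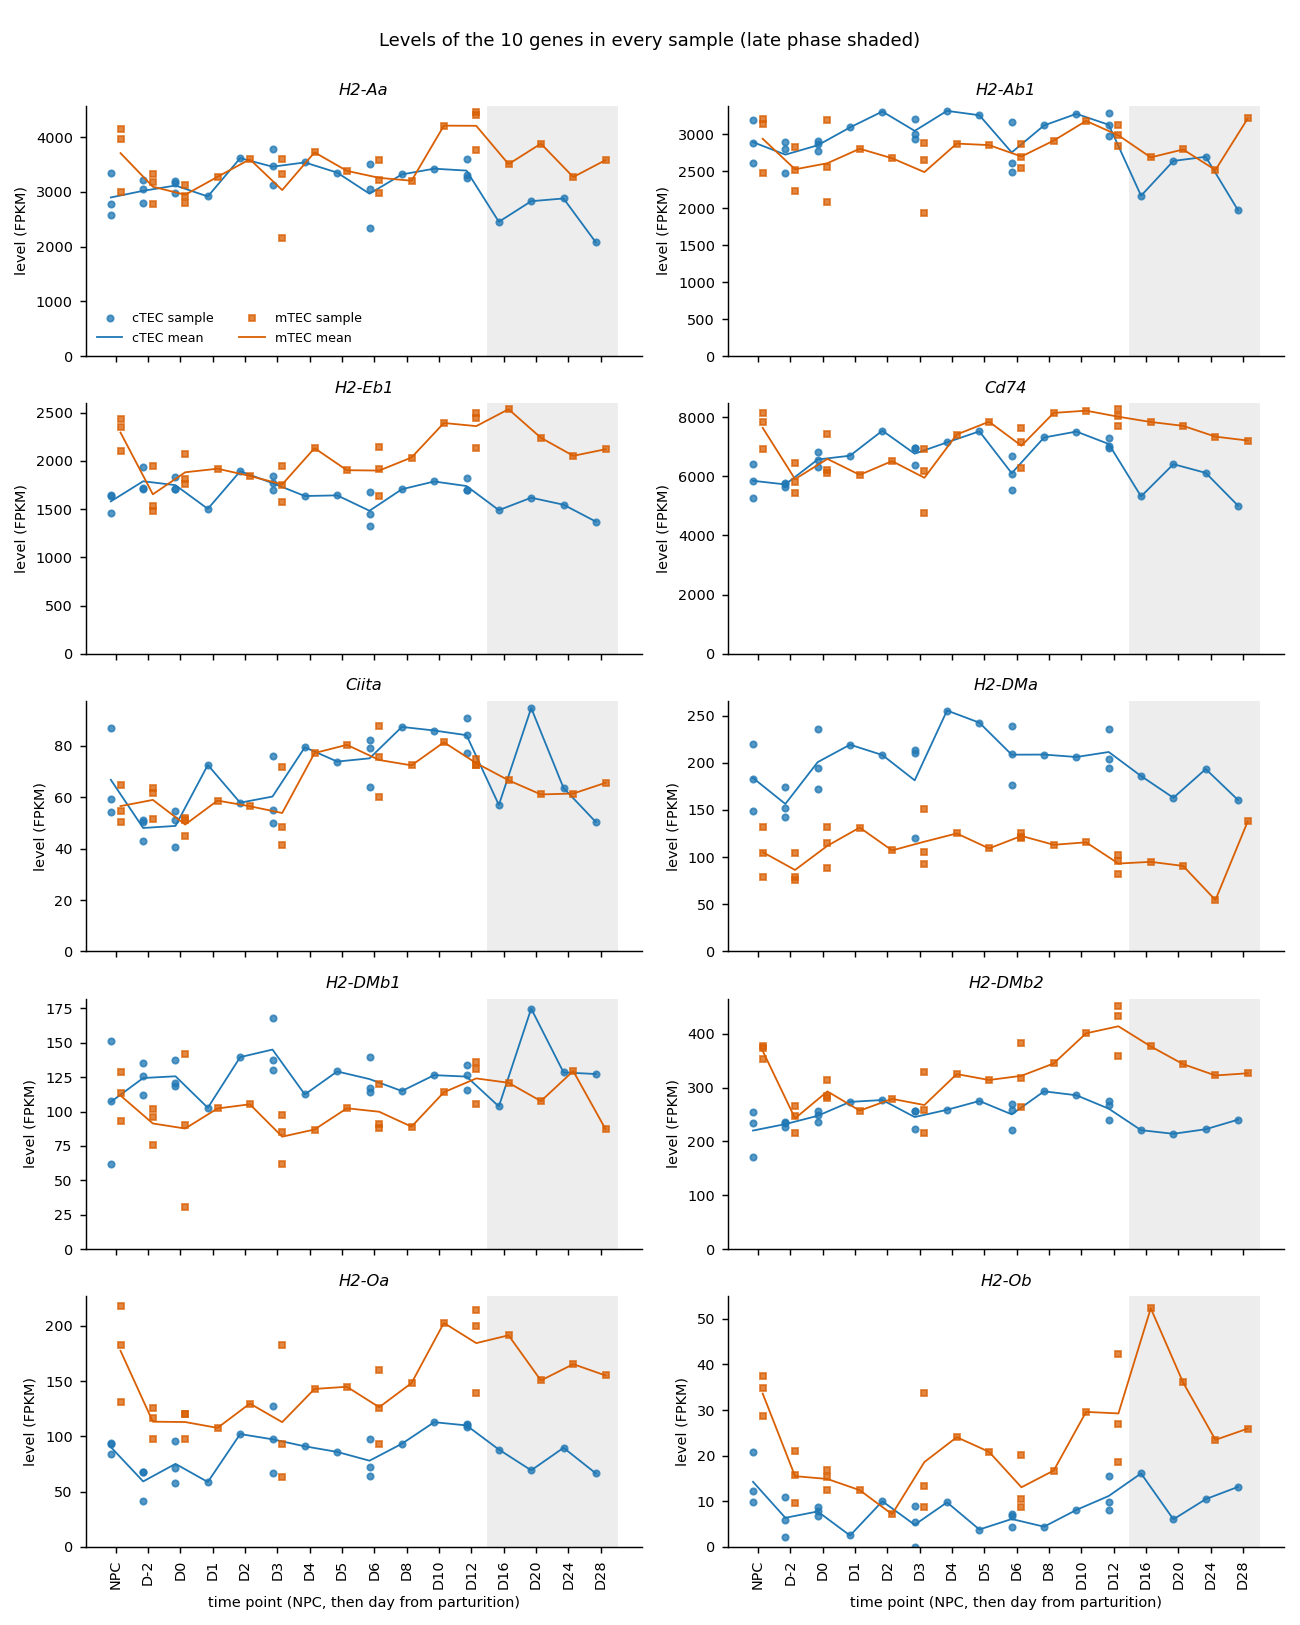
FPKM of the 10 genes in every cTEC sample (circles) and mTEC sample (squares) by time point, with lines through the mean of each time point and the late phase shaded. Each vertical axis starts at 0, and *H2-DMa* is the member whose cTEC mean was above its mTEC mean at 16 of 16 time points.

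Over the 28 samples, the coefficient of variation of FPKM was 9.09% to 13.2% in cTECs for *H2-Aa*, *H2-Ab1*, *H2-Eb1* and *Cd74*, where genes of a like level had medians of 19.5% to 26.4%. In mTECs the same 4 genes had coefficients of 11.9% to 15.1%, where genes of a like level had medians of 19.5% to 20.8%. These sets of genes, within 2-fold of the mean level, were small for *Cd74* (9 others in cTECs and 10 in mTECs). The members were not taken out of them. *Ciita* varied more than these 4 genes, by 24.01% in cTECs and 18.7% in mTECs. Genes of its level had higher medians, 26.4% in cTECs and 26.9% in mTECs. *H2-Ob*, the least abundant member, varied most, by 53.5% in cTECs and 51.1% in mTECs, where genes of a like level had medians of 44.3% and 34.7%. The median over all tested genes was 47.0% in cTECs and 52.1% in mTECs.

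*H2-DMb1* and *H2-DMb2* share sequence. Of the 1604 windows of 75 bases (the number of sequencing cycles) in *H2-DMb1* transcripts, 254 (15.8%) were also in *H2-DMb2*, and the expected counts of both were fractional in 56 of 56 samples, so the split of reads between these copies is uncertain and the tests of their summed counts are given where *H2-DMb1* or *H2-DMb2* is described.

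The samples of cTECs and mTECs were compared over all time points, with the time point as a covariate, to ask where class II transcripts differed between the cell types. *H2-Ob* was higher in mTECs, and no other member passed the called threshold of a 2-fold change at an adjusted p of at most 0.01 (limma-voom, Benjamini-Hochberg over 18394 genes). 21.2% of all genes passed it. *H2-Oa*, its partner chain, and *H2-DMb2* were also higher in mTECs and *H2-DMa* was lower, each by less than 2-fold. Without regard to fold, 8 of the 10 members differed at an adjusted p of at most 0.01, beside 40.9% of all genes.

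*H2-Ob*, the beta chain of H2-O, ranged from 7.15 to 52.31 FPKM in mTECs with a median of 20.45, and from 0 to 20.87 in cTECs with a median of 8.115. The highest cTEC samples therefore overlapped the lower mTEC samples, although 13 of 28 mTEC samples lay above every cTEC sample. The difference was 1.51 on the log2 scale (SE 0.168, 95% interval 1.17 to 1.85, adjusted p = 1.26e-10, limma-voom), which is 2.85-fold, and the mean was higher in mTECs at 15 of 16 time points. Taken 1 time point at a time, with 3 samples per cell type, the log2 difference of *H2-Ob* was called at D12 (1.36, adjusted p = 0.00169, limma-voom) and not at NPC (1.60, adjusted p = 0.0708), D-2 (1.76, 0.0567), D0 (0.98, 0.111), D3 (3.86, 0.5) or D6 (1.41, 0.0366). The D3 value rests on 1 cTEC library that stood apart and lists *H2-Ob* at 0, and without the libraries that stood apart it was 1.28 (adjusted p = 0.546, limma-voom).

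*H2-Oa*, the alpha chain, ranged from 62.75 to 217.94 FPKM in mTECs (median 140.9) and from 41.71 to 127.91 in cTECs (median 88.86). Its log2 difference was 0.79 (SE 0.082, 95% interval 0.62 to 0.95, adjusted p = 1.84e-11, limma-voom), and its mean was higher in mTECs at 16 of 16 time points. Of all genes, 12.4% had a higher mean in mTECs at 15 or 16 of the time points.

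Summed markers of other antigen-presenting cells were also higher in the mTEC samples, although the gate removed CD45+ cells. The 8 B cell markers summed to 6.41 to 36.6 FPKM in mTECs (median 17.1) and 0 to 8.87 in cTECs (median 2.97), and 6 of the 8 passed the called threshold as higher in mTECs. The 9 dendritic cell markers summed to 7.61 to 37.2 FPKM against 0 to 12.1, and 9 macrophage markers to 19.4 to 227 against 4.48 to 45.7. Of these, 4 dendritic cell and 7 macrophage markers were called higher in mTECs, and the macrophage marker *Mertk* was called lower (-1.405). *Lyz2* alone had a median of 49.0 FPKM in mTECs, beside 81.3 for the macrophage sum. Of 3 leukocyte markers, *Ptprc*, the gene of CD45, was called lower in mTECs (-1.68, adjusted p = 1.06e-05, limma-voom) and *Laptm5* higher (2.49). Of 14 thymocyte markers, 12 were also called lower in mTECs and 0 higher, and their sum had a median of 97.8 FPKM in cTECs and 33.0 in mTECs. The part of thymocyte transcripts in the *Ptprc* difference was not tested. The B cell marker *Ms4a1* was at 0 in 12 of 28 mTEC and 25 of 28 cTEC samples. The mTEC sample with the highest *H2-Ob*, D16 with 52.31 FPKM, also had the highest sums of dendritic cell markers (37.2) and macrophage markers (227). Not all mTEC samples followed this. A D12 sample with the highest B cell sum (36.6) had 18.58 FPKM of *H2-Ob*, below the mTEC median. An NPC sample with 37.38 FPKM of *H2-Ob* had a dendritic cell sum of 13.25. The part of such cells in the higher *H2-Ob* and *H2-Oa* of mTECs was not tested.

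**Figure D2:**
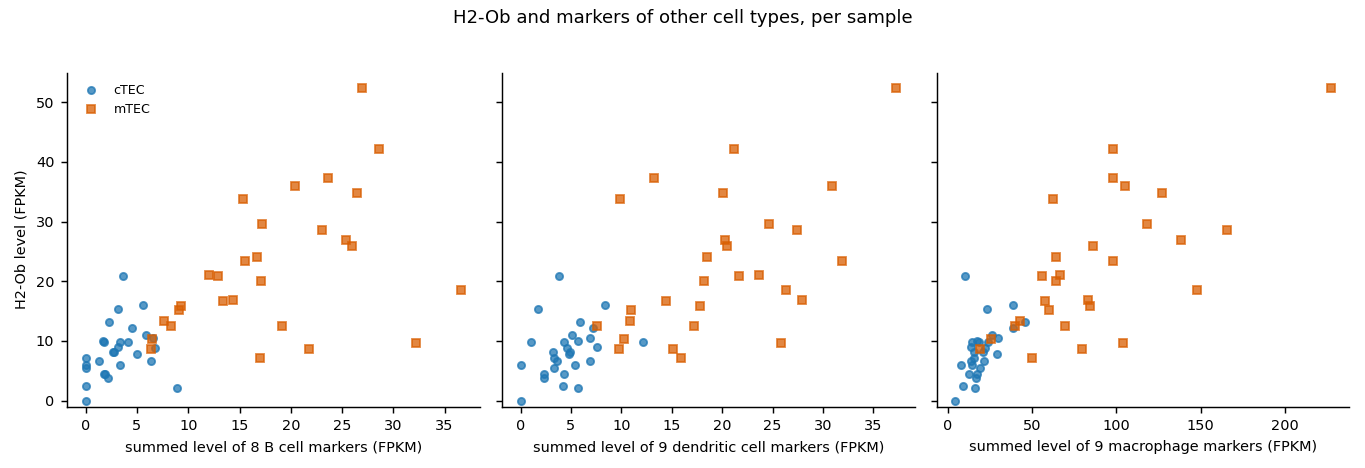
*H2-Ob* FPKM against the summed FPKM of 8 B cell, 9 dendritic cell and 9 macrophage markers, 1 point per sample (circles cTECs, squares mTECs). The mTEC samples lie to the right of most cTEC samples in each panel, and the sample with the highest *H2-Ob* (52.31 FPKM) has the highest macrophage sum (227 FPKM). The sample with the highest B cell sum (36.6 FPKM) has 18.58 FPKM of *H2-Ob*.

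*H2-DMa*, the alpha chain of the exchange factor, went the other way. It ranged from 120.57 to 255.3 FPKM in cTECs (median 199.4) and from 54.5 to 150.81 in mTECs (median 106.4), and 25 of 28 cTEC samples lay above every mTEC sample. The log2 difference was -0.87 (SE 0.065, 95% interval -1.003 to -0.743, adjusted p = 4.94e-16, limma-voom), 1.83-fold lower in mTECs, and the mean was lower in mTECs at 16 of 16 time points, beside 7.54% of genes that were lower at 15 or 16. At D12 alone it passed the 2-fold threshold (-1.14, adjusted p = 9.13e-05).

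The beta chains of H2-DM differed from each other. *H2-DMb2* was higher in mTECs by 0.39 on the log2 scale (SE 0.056, adjusted p = 6.03e-08, limma-voom), with 18 of 28 mTEC samples above every cTEC sample. *H2-DMb1* was lower in mTECs (log2 difference -0.33, SE 0.081, adjusted p = 0.000678). With the counts of the 2 copies summed, the log2 difference was 0.20 (SE 0.053, adjusted p = 0.00136).

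Among the classical chains, *H2-Eb1* was higher in mTECs by 0.31 on the log2 scale (SE 0.047, adjusted p = 1.8e-07, limma-voom) and 17 of 28 mTEC samples lay above every cTEC sample. *H2-Aa* (0.17, SE 0.052, adjusted p = 0.00457) and *Cd74* (0.15, SE 0.042, adjusted p = 0.00303) were slightly higher. These small differences did not hold throughout: neither passed an adjusted p of 0.01 with edgeR, with limma on log2(FPKM + 0.5), in the 6 replicated time points alone or without the 4 libraries that stood apart, and without the filter on low genes their direction turned (-0.04 for *H2-Aa* and -0.02 for *Cd74*). For *H2-Ab1* the log2 difference was -0.04 (95% interval -0.15 to 0.06, adjusted p = 0.511), and for *Ciita* it was -0.07 (95% interval -0.18 to 0.04, adjusted p = 0.292). Without the filter on low genes, a fit over 33769 genes, both passed an adjusted p of 0.01. *H2-Ab1* was then at -0.28 (adjusted p = 5.83e-07, limma-voom) and *Ciita* at -0.18 (adjusted p = 3.55e-17). Neither passed it in any other alternative, and DESeq2 gave 0.018 for *H2-Ab1* (adjusted p = 0.831) and 0.024 for *Ciita* (adjusted p = 0.798). The result for these members thus differed in that setting alone.

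**Figure D3:**
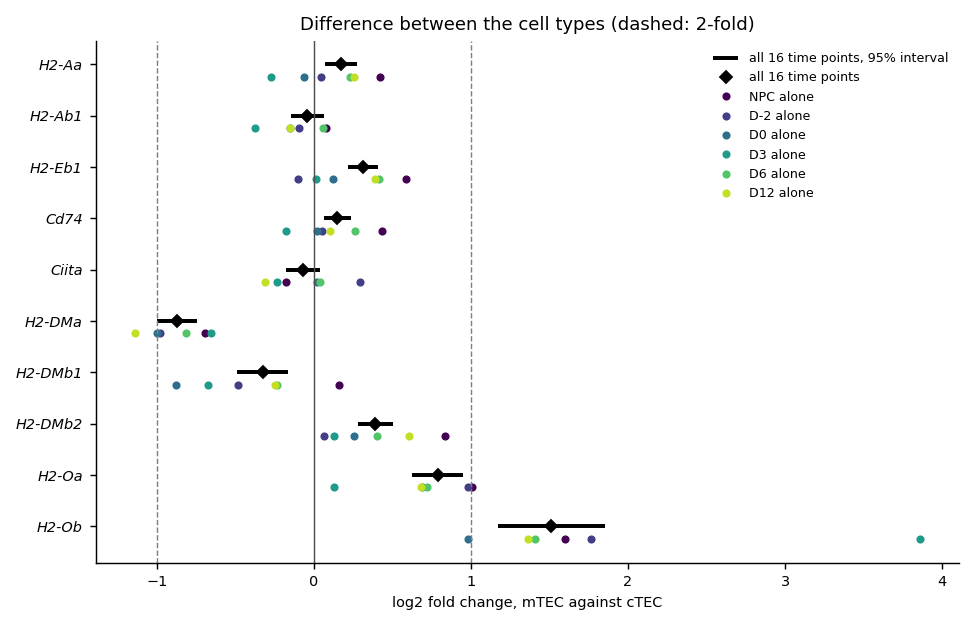
Log2 fold change of each gene in mTECs against cTECs, over all 16 time points (diamonds with 95% intervals) and at each time point with 3 samples per cell type (circles). Dashed lines mark 2-fold, and *H2-Ob* is the only member whose estimate over all time points lies beyond them.

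Several genes that work with class II differed by more than 2-fold between the cell types. Of 8 genes of class II peptide supply, *Ctss* (2.55 on the log2 scale), *Ctsz* (2.14) and *Ifi30* (1.10) were called higher in mTECs, and *Prss16* (-3.40) and *Ctsl* (-1.21), the protease genes of cTECs, were called lower. *Cd83*, which stabilises class II on cTECs, was called lower in mTECs (log2 difference -4.21, adjusted p = 2.23e-28, limma-voom). It averaged 114.6 FPKM in cTECs and 6.689 in mTECs.

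*H2-Eb2*, a further class II beta gene, was called higher in mTECs (1.30, adjusted p = 1.27e-15, limma-voom), with means of 58.65 FPKM in mTECs and 23.8 in cTECs. The E alpha locus, annotated as *H2-Ea-ps*, was listed at 0 in every cTEC sample and reached at most 0.5 FPKM in mTECs, while its partner *H2-Eb1* was at 1322.94 FPKM or more in all 56. Mice of the H2-b haplotype are known to lack a working E alpha gene.

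Of the 7 CIITA partners none was called, and *Rfx5* was the one that differed at an adjusted p of at most 0.01 (-0.26 on the log2 scale, adjusted p = 0.00491). Of the 7 genes of the interferon-gamma route, *Ifngr2*, a receptor chain, was called higher in mTECs (1.17), and of 13 interferon-gamma induced genes *Cxcl9* (3.67) and *Ido1* (3.29) were. Of the 9 class I genes with *Nlrc5*, the class I transactivator, 1 was called, *Psmb9*, which was lower in mTECs (-1.02).

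The first change examined within each cell type was pregnancy (D-2 against NPC). No member passed the called threshold in either cell type, where 0.0% of 15845 genes in cTECs and 0.0% of 17743 in mTECs did (limma-voom and edgeR alike, whereas DESeq2 called 90 and 171 genes). At an unadjusted p under 0.05, 9.87% of genes in cTECs and 12.8% in mTECs passed, and of the members *H2-Oa* in cTECs and *H2-DMb2* and *H2-Ob* in mTECs.

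In mTECs, the FPKM of 5 members did not overlap between the groups and was lower at D-2, where 8.16% of all genes did so, and no member was higher without overlap, where 6.28% were. *H2-DMb2* stood at 377.24, 373.9 and 352.67 FPKM in NPC and 216.34, 246.78 and 265.1 at D-2, with a log2 fold change of -0.55 (SE 0.195, 95% interval -0.98 to -0.11, adjusted p = 0.305, limma-voom), and the summed counts of *H2-DMb1* and *H2-DMb2* gave -0.47 (SE 0.191, adjusted p = 0.354). *H2-Ob* stood at 37.38, 34.83 and 28.61 FPKM in NPC and 21.11, 9.57 and 15.79 at D-2 (log2 fold change -0.73, SE 0.296, adjusted p = 0.354). *H2-Oa* stood at 182.97, 217.94 and 131.5 FPKM against 97.84, 116.68 and 125.33 (log2 fold change -0.55, SE 0.261, adjusted p = 0.404). In each of these genes the lowest NPC sample was above the highest D-2 sample, yet the changes did not pass the test over all genes.

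*H2-Eb1*, the classical E beta chain, stood at 2433.31, 2349.27 and 2097.77 FPKM in NPC and 1479.87, 1532.92 and 1946.77 at D-2 (log2 fold change -0.40, SE 0.208, adjusted p = 0.432). *Cd74* stood at 7840.55, 8145.39 and 6915.26 FPKM against 5448.53, 5806.11 and 6450.76 (-0.30, SE 0.198, adjusted p = 0.54). *Ciita* did not share this pattern, with 50.3, 64.83 and 54.51 FPKM in NPC and 61.83, 63.49 and 51.56 at D-2 (0.13, SE 0.203, adjusted p = 0.819). The median log2 fold change was -0.28 over the 10 members and 0.169 over all genes, a value that was 0.011 in edgeR. The 10 genes together took 2.598% ± 0.0371 of TPM in NPC and 2.261% ± 0.163 at D-2 (SD, n = 3 each). The macrophage marker sum was 98.1 to 166 FPKM in NPC and 66.3 to 104 at D-2, and the B cell sum was 23.1 to 26.4 and 9.27 to 32.2, and their part in these values was not tested.

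In cTECs, the members did not share 1 direction at D-2. *H2-Oa* stood at 93.71, 93.52 and 83.75 FPKM in NPC and 41.71, 68.13 and 67.72 at D-2 (log2 fold change -0.60, SE 0.23, adjusted p = 0.478, limma-voom). *Ciita* stood at 59.39, 86.77 and 54.19 FPKM against 51.13, 42.79 and 50.22 (-0.42, SE 0.212, adjusted p = 0.545). These were the members whose D-2 samples all lay below NPC (7.56% of genes did), while *H2-Eb1* was the one whose D-2 samples all lay above it (6.54% of genes), at 1938.87, 1703.98 and 1722.14 FPKM against 1463.11, 1644.82 and 1631.77.

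The median over the 10 genes was -0.01 on the log2 scale in cTECs. For 7 of the 10 the 95% interval of the change lay within 2-fold in either direction, as it did for 37.1% of all genes. The change in mTECs minus that in cTECs was -0.73 for *H2-DMb2* (95% interval -1.26 to -0.20, adjusted p = 0.631 in limma-voom) and -0.65 for *H2-Eb1* (adjusted p = 0.631), and with the H2-DM beta copies summed it was -0.71 (SE 0.264, adjusted p = 0.642). No member was called in this test of the difference between cell types, in which 0.0% of genes were.

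Regeneration was followed from D-2 to D6, the contrast that the study used for its differentially expressed genes. At the same thresholds the study reported more such genes in each cell type than were called here. The values here are of RNA. The study counted MHC-II among the targets of the transcription factor FOXN1 in cTECs. It stated that the expression of these genes was lower in pregnancy, higher in early regeneration and lower again late. For MHC-II protein at the cell surface, the study's flow cytometry found a very low share of MHC-II-high cTECs at D-2. That share rose in early regeneration and was very low again in the late phase. In cTECs, 1.34% of genes were called (213 of 15845, limma-voom), and none of the 10 members was. For 9 of the 10 the 95% interval lay within 2-fold, as it did for 37.4% of all genes, with *H2-Ob* as the exception. *H2-Aa* was at 3049.91, 2792.89 and 3218.7 FPKM at D-2 and 3052.75, 3508.14 and 2341.69 at D6 (log2 fold change -0.11, 95% interval -0.52 to 0.31). *H2-Ab1* was at 2801.37, 2473.85 and 2895.81 FPKM against 2611.04, 3159.34 and 2491.82 (-0.03, 95% interval -0.41 to 0.35). The samples of these groups overlapped in both genes, and *Cd74* behaved likewise (0.05, 95% interval -0.31 to 0.40).

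*Ciita* had the largest fold change among the members in cTECs. It was at 51.13, 42.79 and 50.22 FPKM at D-2 and 82.31, 79.25 and 63.83 at D6, so that the groups did not overlap, as in 12.6% of genes. Its log2 fold change was 0.60 (SE 0.17, 95% interval 0.23 to 0.98, adjusted p = 0.0695, limma-voom), and over the alternatives tried the adjusted p ran from 0.0148 to 0.242. *H2-DMa* was above every D-2 sample in every D6 sample as well, from 174.76, 142.45 and 151.78 FPKM to 176.4, 239.43 and 209.71. The 95% interval of its log2 fold change of 0.25 (SE 0.154, adjusted p = 0.368, limma-voom) ran from -0.096 to 0.59 and included 0. *H2-Eb1* lay below D-2 in every D6 sample (-0.32, SE 0.162, adjusted p = 0.275), as 12.3% of genes did.

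Several genes that supply class II peptides or stabilise class II were called over the same interval. *Prss16*, a thymus-specific serine protease of cTECs, rose from 220.5 ± 54.67 to 2845 ± 250.6 FPKM (SD, n = 3 each), a log2 fold change of 3.71 (adjusted p = 7.09e-05, limma-voom). *Cd83* rose from 17.07 ± 6.604 to 208.8 ± 31.94 FPKM (3.66, adjusted p = 0.000262), and *Ctsl*, the cathepsin of cTECs, from 1023 ± 261.3 to 3668 ± 464 FPKM (1.83, adjusted p = 0.00158). These were 2 of the 8 genes of peptide supply and 1 of the 2 tested genes of class II turnover. None of the 7 CIITA partners, the 7 genes of the interferon-gamma route, the 12 tested interferon-gamma induced genes or the 9 class I genes was called.

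In mTECs, 0.299% of genes were called and no member was. *H2-DMa* was the member whose groups did not overlap (10.9% of genes did so upwards and 12.9% downwards), at 78.81, 75.86 and 104.46 FPKM at D-2 and 119.97, 125.82 and 121.51 at D6 (log2 fold change 0.43, SE 0.189, adjusted p = 0.238, limma-voom). *H2-DMb2* had a change of the same size (0.42, SE 0.164, adjusted p = 0.186), from 216.34, 246.78 and 265.1 FPKM to 382.94, 264.68 and 317.45, where 1 sample of D6 fell just below the highest of D-2. With *H2-DMb1* and *H2-DMb2* summed, the change was 0.36 on the log2 scale (SE 0.159, adjusted p = 0.24, limma-voom). *Ciita* was at 61.83, 63.49 and 51.56 FPKM against 60.12, 75.81 and 87.52 (0.34, SE 0.167, adjusted p = 0.288). All 10 intervals lay within 2-fold, as did those of 42.5% of all genes. *Prss16* was called here too (2.80, adjusted p = 0.00945), from 60.44 ± 25.37 to 414.5 ± 194 FPKM. It is also 1 of the 6 cTEC markers, of which no other was called in mTECs, and the sum of these markers in mTECs was 268 to 572 FPKM at D-2 and 1010 to 2530 at D6, beside 484 to 926 and 5910 to 7190 in cTECs. The part of cells with cTEC transcripts in the *Prss16* of mTECs was not tested.

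The change in mTECs minus that in cTECs was called for no member, while 0.00544% of genes were called. *H2-Eb1* had the lowest adjusted p among the members (0.52, 95% interval 0.06 to 0.98, adjusted p = 0.351 in limma-voom).

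At D12 the levels were compared with NPC to see how far they lay from those of non-pregnant females. No member was called in either cell type, beside 0.0% of genes in each (DESeq2 called 23 genes in cTECs and 5 in mTECs, none of them members). In cTECs 9.35% of genes and in mTECs 6.61% had an unadjusted p under 0.05, and 1 member in cTECs and 0 in mTECs did. In cTECs, 9 of 10 members had a higher estimate at D12, with a median of 0.292 on the log2 scale beside 0.073 over all genes. *Cd74* was at 5266.22, 5848.97 and 6421.35 FPKM in NPC and 6965, 7278.69 and 7023.11 at D12 (log2 fold change 0.31, SE 0.134, adjusted p = 0.532, limma-voom), and *H2-Oa* was at 93.71, 93.52 and 83.75 against 108.83, 109.88 and 111.04 (0.30, SE 0.148, adjusted p = 0.544). In these genes and in *H2-Eb1* every D12 sample exceeded every NPC sample, as in 7.0% of genes, and no member lay below NPC in every D12 sample, where 7.33% did.

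*Ciita* was at 90.9, 77.21 and 84.3 FPKM at D12 in cTECs (0.38 against NPC, SE 0.2, adjusted p = 0.544) and at 72.56, 72.42 and 74.83 in mTECs (0.36, SE 0.176, adjusted p = 0.72). In mTECs its NPC samples, 50.3, 64.83 and 54.51 FPKM, all lay below D12, as in 4.84% of genes, and no member had all its NPC samples above D12, as 3.96% of genes had. The other mTEC members had estimates between -0.28 and 0.17, and their D12 and NPC samples overlapped. All 10 intervals lay within 2-fold in each cell type, where 47.5% of genes in cTECs and 30.0% in mTECs did.

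**Figure D4:**
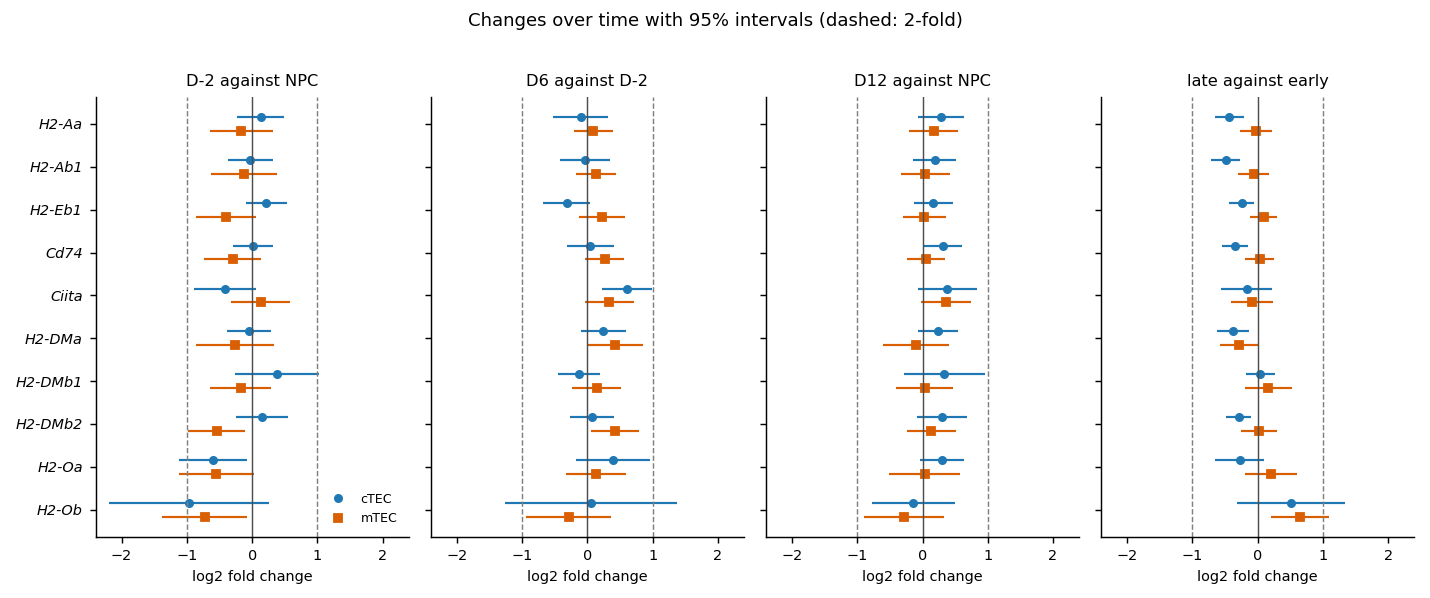
Log2 fold changes of the 10 genes with 95% intervals in 4 comparisons over time, circles for cTECs and squares for mTECs, with dashed lines at 2-fold. No estimate lies beyond 2-fold, and in the late phase the cTEC estimates of *H2-Aa*, *H2-Ab1*, *H2-Eb1* and *Cd74* lie between -0.49 and -0.24.

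In the late phase (D16 to D28), 5 of the 10 members were lower in cTECs than in the early phase at an adjusted p of at most 0.05 (limma-voom), where 4.74% of genes were. They were *H2-Aa*, *H2-Ab1*, *Cd74*, *H2-DMa* and *H2-DMb2*, each by less than 2-fold, and no member was called (1.41% of genes were). *H2-Ab1* stood at 2168.32, 2639.13, 2694.5 and 1971.06 FPKM at D16, D20, D24 and D28, and between 2491.82 and 3315.7 in the 18 early samples (median 3105). *H2-Aa* stood at 2454.3, 2830.78, 2880.57 and 2077.4 FPKM against 2341.69 to 3793.13 (median 3315). *Cd74* stood at 5318.25, 6406.77, 6112.56 and 5003.09 FPKM against 5544.47 to 7538.53 (median 6957). The D16 and D28 samples of *H2-Ab1* and *Cd74* lay below all early samples, and those of D20 and D24 lay within the early range, so no member separated the phases (0.126% of genes did downwards and 0.442% upwards).

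The log2 fold change was -0.49 for *H2-Ab1* (SE 0.111, 95% interval -0.72 to -0.27, adjusted p = 0.00697, limma-voom), the one member at an adjusted p of at most 0.01, where 1.07% of genes were lower. It was -0.43 for *H2-Aa* (SE 0.109, adjusted p = 0.0139), -0.38 for *H2-DMa* (SE 0.12, adjusted p = 0.0422), -0.34 for *Cd74* (SE 0.098, adjusted p = 0.0268) and -0.29 for *H2-DMb2* (SE 0.094, adjusted p = 0.0455). The estimates of the other members were -0.24 for *H2-Eb1* (adjusted p = 0.0898), -0.28 for *H2-Oa* (0.33), -0.17 for *Ciita* (0.6), 0.04 for *H2-DMb1* (0.863) and 0.51 for *H2-Ob* (0.431). *Ciita* was at 56.99, 94.71, 63.61 and 50.34 FPKM from D16 to D28, and the highest of these came from D20, a library that stood apart, without which its log2 fold change was -0.38. With *H2-DMb1* and *H2-DMb2* summed, the fold change was -0.19 (SE 0.082, adjusted p = 0.124).

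The lower late levels depended on the tool and on single mice. The number of members at an adjusted p of at most 0.05 was 5 in limma-voom, 4 in DESeq2 and 0 in edgeR, where *H2-Ab1* had an adjusted p of 0.0548, and it was 0 with limma on log2(FPKM + 0.5) and 0 with D12 counted as late. It was 3 without TMM scaling and 3 without the filter on low genes, where *Cd74*, *H2-DMa* and *H2-DMb2* passed and *H2-Ab1* did not (-0.29, adjusted p = 0.198). It was 1 without D28, 2 without D16, 4 without D20 and 4 without D24. Without the 4 libraries that stood apart it was 6, and *H2-Ob* was then the sixth, with a higher level (0.81, adjusted p = 0.0162).

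Fibroblast markers, as a sum of 6 genes, were at 289 to 670 FPKM in late and 68.6 to 354 in early cTEC samples, and the macrophage sum was 7.89 to 45.7 against 4.48 to 29.2. The fibroblast sum was mostly *Dcn*, with a median of 241 FPKM over all cTEC samples beside 258 for the sum. Of the 4 fibroblast markers tested, *Dcn* was the 1 called in late against early cTECs (1.27, adjusted p = 0.00597, limma-voom). The mTEC markers *Aire* (2.07 on the log2 scale, adjusted p = 0.00468, limma-voom) and *Cd80* (3.08, adjusted p = 0.00865) were called higher in late cTEC samples, 2 of 7. The sum of the 7, mostly *Ccl21a* and *Krt5*, was 4420 to 7280 FPKM against 3650 to 7930 in early samples. *Foxn1*, a transcription factor of thymic epithelium, was called lower (-1.28, adjusted p = 0.00386). None of the 6 cTEC markers was called, and their sum was 2010 to 6470 FPKM against 1140 to 7460. The part of other cells, or of a different mix of epithelial cells, in the lower class II levels was not tested. Among the further class II genes, *H2-Eb2* moved the other way in cTECs (0.43, SE 0.108, adjusted p = 0.0142, limma-voom), with 29.17 to 33.69 FPKM in late and 17.46 to 29.76 in early samples. Of peptide supply, *Ctss* was called higher (1.27) and *Ifi30* lower (-1.36), and of 12 tested interferon-gamma induced genes *Gbp4* was called higher (1.26).

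In mTECs no late sample of *H2-Ab1* lay below the early range. It was at 2686.96, 2793.7, 2516.61 and 3213.53 FPKM, against 1931.34 to 3189.86 in early samples (log2 fold change -0.06, 95% interval -0.30 to 0.18, limma-voom). No member was called (0.062% of genes were), and none separated the phases (0.13% of genes did upwards and 0.0282% downwards). *H2-Ob* had the largest estimate, at 52.31, 36.04, 23.46 and 25.93 FPKM from D16 to D28 against 7.15 to 42.22 (median 16.81) in the early phase (0.65, SE 0.218, adjusted p = 0.0986). The macrophage marker sum was 86.0 to 227 FPKM in late and 19.4 to 148 in early mTEC samples, and the dendritic cell sum 20.4 to 37.2 against 7.61 to 27.9, and their part in *H2-Ob* was not tested.

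The late change in mTECs minus that in cTECs was above 0 for 10 of 10 members in limma-voom, although under alternatives it fell below 0 for *Ciita* (lowest -0.072), *H2-DMa* (-0.084) and *H2-Ob* (-0.36). It was 0.47 for *H2-Ab1* (95% interval 0.16 to 0.78, adjusted p = 0.25 in limma-voom), 0.45 for *H2-Aa* (adjusted p = 0.31), 0.42 for *Cd74* (adjusted p = 0.282) and 0.37 for *H2-Eb1* (adjusted p = 0.304). Of the 10 members, 5 had an unadjusted p under 0.05, as 10.2% of genes did, and none was called (0.00544% of genes were), so a difference between the cell types was not established.

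*Ciita* levels were set beside those of the other members over the 28 samples of a cell type, since CIITA is their known regulator. Of 18 correlations of log2(FPKM + 0.5), none passed an adjusted p of 0.05 (permutation test, 100000 resamples, two-sided, Benjamini-Hochberg over the 18). The highest were with *Cd74* in mTECs (Pearson r = 0.510, permutation p = 0.00512, adjusted p = 0.0653, and Spearman rho = 0.465, permutation p = 0.0136, adjusted p = 0.0828) and with *H2-Aa* in mTECs (r = 0.475, permutation p = 0.01, adjusted p = 0.0653, and rho = 0.356, permutation p = 0.0641, adjusted p = 0.192). Without the 2 samples with *Ciita* farthest from its median they fell to r = 0.392 and 0.385.

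In cTECs, *Ciita* gave r = 0.444 with *Cd74*, 0.443 with *H2-Ab1* and 0.432 with *H2-Oa* (adjusted permutation p = 0.0653 for each), and -0.125 with *H2-Eb1* (adjusted permutation p = 0.634). Deviations from the mean of each time point were taken over the 6 time points with 3 samples, and not over all samples. Of the 18 correlations, 1 then had an adjusted p under 0.05, *H2-Aa* in cTECs (r = 0.672, adjusted permutation p = 0.0367). For *H2-DMb2* in cTECs r turned to -0.615. This permutation shuffled the deviations freely, although centring ties those of a time point together. Its p is therefore too small, and no correlation is taken as established by it. *H2-Ob* gave r = -0.114 in cTECs and 0.025 in mTECs.

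The classical chains followed each other more closely than they followed *Ciita*, as a description over 28 samples that share their time points and their depth. *H2-Aa* and *H2-Ab1* had r = 0.883 in cTECs and 0.83 in mTECs, and *H2-Aa* and *Cd74* had 0.783 and 0.814. Compared with the mean z-score of *H2-Aa*, *H2-Ab1* and *H2-Eb1*, *Cd74* gave r = 0.807 in cTECs and 0.897 in mTECs, and *Ciita* 0.254 and 0.421.

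*H2-Oa* and *H2-DMb2* differed between the cell types in this respect, with r = 0.417 and 0.337 in cTECs and 0.877 and 0.873 in mTECs, a difference that was not tested. *H2-Ob* gave -0.243 and 0.525, and *H2-DMa* 0.203 and 0.093. Outside the 10 genes, those most like the classical chains were the ribosomal protein genes *Rps2* (r = 0.903), *Rps15* (0.902), *Rplp2* (0.898), *Rps10* (0.894) and *Rpl8* (0.885) in cTECs, of 10058 genes with a mean of at least 5 FPKM. In mTECs they were *Plp2* (0.857), *Rack1* (0.856), *Eif5a* (0.836), *Lgals1* (0.834) and *Capg* (0.827), of 10492 genes.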

How the data were processed

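Poly-A RNA libraries (KAPA RNA HyperPrep Stranded, NextSeq500) of 56 sorted samples were used. Per the labels and methods, the authors trimmed reads with Trimmomatic 0.35, aligned them to GRCm38 with STAR 2.5.1b and quantified genes with RSEM 1.2.28. The deposited expected counts are RSEM estimates that are not normalized, of which 91.44% to 97.96% per sample were whole numbers. The deposited TPM and FPKM values were scaled by the authors for gene length and for the sample's total. The annotation release is not given in the sources used here, and GENCODE M21 matched 50376 of the 50600 identifiers.

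Expected counts were rounded and fitted with limma 3.58.1 (voom, eBayes) after TMM scaling in edgeR 4.0.16 (R 4.3.3), over genes with a mean of at least 0.5 FPKM in the 28 samples of a cell type, or in either cell type where both were fitted. A gene was called when its fold change reached 2 and its adjusted p (Benjamini-Hochberg) did not exceed 0.01. Fold changes are log2 differences of library-scaled counts with 95% intervals for single genes, and FPKM levels are given as deposited with SD. All 10 members passed the filter in both cell types. The genes named from other lists, cell type markers aside, were those called with the largest changes, at most 4 per list and comparison. For peptide supply between the cell types, all called genes are named. Other genes are named where a member's result is set beside them (*Cd83*, *H2-Eb2*, *H2-Ea-ps*, *Rfx5*), chosen after their values were seen. The fits were tested on simulated counts. EdgeR's quasi-likelihood test, DESeq2 1.42.0, no TMM scaling, no filter, limma on log2(FPKM + 0.5), other sample sets and leaving out single samples were alternatives. Between samples of cTECs and mTECs with the same time point and title number, deviations from the group means correlated by -0.221 to 0.259. NPC number 4 alone was below 0. The labels do not say which samples shared a mouse, and samples were not paired. With a block on this number, the same 8 members differed between the cell types at an adjusted p of at most 0.01 (limma-voom). The members and lists were chosen with earlier results of these data known. The late phase has 1 mouse per time point, and p-values there measure spread over time points as well as over mice.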

Additional observations from a re-analysis of the deposited data

How the results depend on the processing

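The 2-fold threshold by itself keeps smaller changes from being called, such as that of *H2-DMa* between the cell types (-0.87, adjusted p = 4.94e-16, limma-voom), and *H2-Ob* rests on the fewest reads. The number of members called was 0 in the 11 comparisons over time and between the cell types' changes, and stayed 0 under each alternative, leaving out single samples included (0 to 0). No reported estimate there reached 2-fold (-0.97 to 0.65 on the log2 scale), so these counts say little about stability, and in cTECs late against early the number at an adjusted p of at most 0.05 moved from 5 to 0 with edgeR. For mTECs against cTECs the number called was 1, and stayed 1 over all alternatives except single time points, chosen after seeing the data, where it was 0 at NPC, D-2, D0, D3 and D6 (0 as well at D0 and D3 without the libraries that stood apart) and 2 at D12. Of the 18 correlations with *Ciita*, 0 passed, and 1 with deviations from time-point means, by a permutation whose p is too small.

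Under the alternatives other than leaving out single samples, 30 values changed sign among all members between the cell types, in cTECs at D6 against D-2 and in the late phase, and among the named members elsewhere, all but *H2-Aa* and *Cd74* in mTECs against cTECs with an adjusted p above 0.01 as reported, and the cause was not tested. In cTECs at D6 against D-2, *H2-Ob* was -0.026 with edgeR, -0.045 with DESeq2 and -0.051 with the replicate block, and *H2-Ab1* was 0.005 without TMM, 0.026 without the filter and 0.012 with limma on log2(FPKM + 0.5). In cTECs late against early, with D12 counted as late, *Ciita* was 0.09 and *H2-Oa* 0.036, and *H2-DMb1* was -0.025 without the 4 libraries that stood apart. In mTECs late against early, *H2-Aa* was 0.018 with DESeq2, 0.049 without TMM, 0.595 without the filter, 0.071 with limma on log2(FPKM + 0.5) and 0.154 with D12 counted as late. Without the filter its adjusted p was 0.979 (limma-voom), and its mean FPKM was 3561 in late and 3430 in early samples. *H2-Ab1* was 0.018 without TMM, 0.029 with limma on log2(FPKM + 0.5) and 0.033 with D12 counted as late, and *Ciita* was 0.062 and *H2-Eb1* -0.034 without the filter. *Ciita* was 0.043 with D12 counted as late, and *H2-DMb2* -0.003 without the 4 libraries. In the late change of mTECs minus that of cTECs, *H2-DMa* was -0.084 with limma on log2(FPKM + 0.5), and with D12 counted as late *Ciita* was -0.001, *H2-DMa* -0.002 and *H2-Ob* -0.004, and *H2-Ob* was -0.193 without the 4 libraries. Between the cell types, *H2-Ab1* was 0.018 and *Ciita* 0.024 with DESeq2, and *H2-Aa* was -0.04 and *Cd74* -0.024 without the filter.

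When single samples were left out, log2 fold changes in cTECs at D6 against D-2 ran from -0.241 to 0.085 for *H2-Aa*, -0.16 to 0.088 for *H2-Ab1*, -0.043 to 0.141 for *Cd74*, -0.004 to 0.184 for *H2-DMb2* and -0.584 to 0.501 for *H2-Ob*. They ran from -0.289 to 0.12 for *H2-Ob* in cTECs at D12 against NPC, from -0.631 to 0.064 for *H2-Ob* in mTECs at D6 against D-2, and from -0.029 to 0.117 for *H2-DMb1* in cTECs late against early. In mTECs late against early they ran from -0.067 to 0.005 for *H2-Aa* and -0.15 to 0.02 for *H2-Ab1*, and in the difference of the late changes from -0.072 to 0.295 for *Ciita*, -0.023 to 0.328 for *H2-DMa* and -0.36 to 0.428 for *H2-Ob*.

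The number of all genes called varied more. It was 213 in cTECs at D6 against D-2, 760 with DESeq2, 395 without the filter and 5 with limma on log2(FPKM + 0.5). In mTECs it was 53, and 464 with DESeq2, 91 with edgeR and 2 in a fit of all 28 samples. In cTECs late against early it was 223, and 45 with edgeR, 95 with DESeq2, 1 with limma on log2(FPKM + 0.5) and 0 with D12 counted as late. Leaving out single samples at D6 against D-2, 60 to 135 genes were called in cTECs, while mTECs had 0 to 11, and the number ranged in cTECs late against early from 52 without D28 to 439 without D24. In mTECs late against early it was 11, and 46 without D28. The replicate numbers of different time points mark different mice, and same-numbered samples correlated by -0.167 to 0.15. With the replicate block no member was called or lost in these comparisons, and the number of all genes called was 168 in cTECs and 90 in mTECs at D6 against D-2.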
